A study of Mus musculus with 12 samples.

Results

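The transforming growth factor beta (TGF-beta) and bone morphogenetic protein (BMP) signalling genes were followed across 6 groups of mouse arrays. The set was a list of 40 genes covering ligands, binding proteins, receptors, Smads and targets, and each was found on the array by the transcript accession of its probes. Of the 40 genes, 39 were among the 15217 genes that passed the filters on dim probes and outlier spots. Bmp5, a BMP ligand with 1 probe, did not: it was well above background on 0 of 12 arrays. By role the list held 10 ligands, 9 genes of latency, processing and secreted antagonism, 9 receptors and co-receptors, 8 Smads and Smad inhibitors and 4 target genes.

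RNA was measured on 12 Agilent one-colour arrays, 2 in each of 6 groups. The genotype labels give all of the mice and cultures, controls included, an inducible Cre and floxed alleles of Foxc1 and Foxc2, and the labels do not name the promoter that drives Cre. The number of the second floxed gene in those labels changes from sample to sample, so the series title, which names the forkhead factors Foxc1 and Foxc2, was followed. Glomeruli, the capillary tufts that filter blood in the kidney, came from control mice given no agent or from mice injected with tamoxifen on 3 days in a row when 8 weeks old, whose glomeruli were taken on day 7. The labels give no age or day for the control mice. Podocytes, the epithelial cells that cover those capillaries, were grown out of adult glomeruli and studied at day 4 or day 7 as mock or tamoxifen-treated cultures. Each treated group had the drug together with any recombination. The labels do not say that the 2 samples of a culture group were separate cultures, so p-values measure the spread between these samples, which may be technical.

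TGF-beta and BMP ligands are secreted proteins that bind pairs of serine/threonine kinase receptors. TGF-beta leaves the cell in a latent complex with binding proteins of the matrix, and activins and BMPs are held in check by secreted antagonists such as follistatin, gremlin, noggin and chordin. Activated receptors phosphorylate Smad proteins, which join Smad4 and enter the nucleus, where the TGF-beta branch acts mainly through Smad2 and Smad3 and the BMP branch through Smad1 and Smad5. In the kidney, TGF-beta is known for its part in glomerular scarring and Bmp7 for kidney development.

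Promoter windows of 4 members are shown first. Bmp6 and Acvr1 are the members that passed the test with tamoxifen, in opposite directions, and Ltbp2 and Inhba have the 2 largest rises from glomeruli to culture. Each window runs from 250 bases before to 50 bases after the RefSeq transcript start in GRCm38.p6, 5′ to 3′ on the gene's strand. Capitals mark GTCT or its reverse complement AGAC, the core of the Smad box. The positions are chr13:38345466-38345765 on the plus strand for Bmp6, chr2:58566779-58567078 on the minus strand for Acvr1, chr12:84876442-84876741 on the minus strand for Ltbp2 and chr13:16011601-16011900 on the plus strand for Inhba.
Bmp6: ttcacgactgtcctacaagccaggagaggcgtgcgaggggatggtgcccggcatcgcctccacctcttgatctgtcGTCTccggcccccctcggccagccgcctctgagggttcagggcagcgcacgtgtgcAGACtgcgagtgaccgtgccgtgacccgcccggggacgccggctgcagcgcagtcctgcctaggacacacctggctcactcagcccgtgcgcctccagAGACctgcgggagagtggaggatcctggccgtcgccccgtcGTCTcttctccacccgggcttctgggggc
Acvr1: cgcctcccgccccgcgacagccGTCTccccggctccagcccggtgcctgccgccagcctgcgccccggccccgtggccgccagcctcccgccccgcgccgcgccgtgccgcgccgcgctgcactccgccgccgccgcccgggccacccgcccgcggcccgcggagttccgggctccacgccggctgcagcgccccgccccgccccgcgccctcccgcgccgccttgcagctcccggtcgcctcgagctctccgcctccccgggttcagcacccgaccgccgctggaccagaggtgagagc
Ltbp2: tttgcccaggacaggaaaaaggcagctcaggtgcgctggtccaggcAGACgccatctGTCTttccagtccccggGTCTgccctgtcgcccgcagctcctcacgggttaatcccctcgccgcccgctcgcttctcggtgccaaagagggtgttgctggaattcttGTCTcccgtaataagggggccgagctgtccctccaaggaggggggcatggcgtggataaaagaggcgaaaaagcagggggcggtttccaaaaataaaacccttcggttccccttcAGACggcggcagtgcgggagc
Inhba: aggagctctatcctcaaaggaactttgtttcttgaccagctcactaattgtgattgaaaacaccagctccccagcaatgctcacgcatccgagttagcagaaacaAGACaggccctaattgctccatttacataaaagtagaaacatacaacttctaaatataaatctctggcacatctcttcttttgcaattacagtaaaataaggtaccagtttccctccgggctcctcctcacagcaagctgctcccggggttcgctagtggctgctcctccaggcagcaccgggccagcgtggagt

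These letters occurred 4 times in the Bmp6 window, 1 time in that of Acvr1, 5 times in that of Ltbp2 and 1 time in that of Inhba. The GC content of the windows was 69.3% for Bmp6, 83.7% for Acvr1, 61% for Ltbp2 and 47.7% for Inhba. The RefSeq table matched 28 members with 36 windows. GTCT or AGAC, searched on both strands, was in 88.9% of those windows and in 88% of all 32851 windows of the same length. The palindrome GTCTAGAC, which contains that box, was in 1 member window, that of Smad6 (2.78% against 0.213%). GGCGCC, a GC-rich element that BMP Smads bind, was in 30.6% of member windows (11 windows of 9 members) against 11.9% of all. Overlapping windows of Ltbp4 and of Smad5 are each counted here, and the windows were not matched for GC content. The forkhead core TAAACA or its reverse complement was in 0 of the 36 member windows and in 13.4% of all, which says that these letters are not in these windows. A match is a description of the sequence and not evidence of binding.

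Values are given as log2 signal after subtraction of each array's 75th percentile, so that a difference of 1 is a 2-fold difference, and levels of different genes are not compared. Differences and their SE come from 1 limma fit of the 6 groups over all 15217 genes, with n = 2 arrays in each group, and genes with an adjusted p (Benjamini-Hochberg, all genes) below 0.05 count as called. With 2 against 2 arrays an exact two-sided permutation test cannot go below 0.333. Between 57.9% and 63.4% of spots per array were well above background, 0 were saturated, and the 2 arrays of a group had a correlation across genes of 0.983 to 0.99. Foxc2, a targeted gene, fell in all 3 tamoxifen comparisons, by 2.82 in glomeruli (adjusted p = 0.037), and at least 139.5-fold at day 4 (0.0019) and 151.4-fold at day 7 (0.00071), since its probe was not well above background on the 4 treated culture arrays. Foxc1 was lower on every treated array than on every control without passing limma (adjusted p = 0.63 in glomeruli, 0.14 at day 4 and 0.057 at day 7). In glomeruli it read 2.92 and 2.80 in the controls against 0.92 and 1.09 after tamoxifen. The fit pools a gene's spread over all 6 groups, so these p-values also carry the spread of the treated cultures. There Foxc1 read -5.78 and -1.74 at day 4 and -8.20 and -3.26 at day 7. Its probe was not well above background on 1 of the 2 treated arrays of each culture day, so no culture size is given. Whether either probe lies in the deleted part is not known from the labels. All 4 glomerular arrays shared a slide, as did the 4 day 4 arrays and the 4 day 7 arrays, so tamoxifen comparisons lie within a slide while tissue, time and slide cannot be told apart.

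In cultures, tamoxifen went with less Bmp6 and more Acvr1. At day 7, 2 of 39 members passed the test, against 0.979% of all genes: Bmp6, a BMP ligand, fell and Acvr1, a type I receptor for BMPs, rose. At day 4, 0 of 39 passed, against 0.210% of all genes, although both genes lay on the same side of the mock arrays, and 8 members had an unadjusted p under 0.05 in limma, as had 1668 of all 15217 genes. The number of members called at day 7 moved from 0 to 5 over the alternative settings.

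Bmp6 read -0.56 and -0.12 on the day 4 mock arrays and -2.16 and -2.01 with tamoxifen. The day 7 values were -0.86 and 0.07 under mock treatment against -2.25 and -2.09 with tamoxifen. On both days the 2 treated arrays were lower than both mock arrays and close to each other, while the mock arrays were further apart. Bmp6 thus fell by 1.77 at day 7 (SE 0.28, adjusted p = 0.033 by limma), and the day 4 difference of -1.75 (SE 0.28) did not pass (adjusted p = 0.065). At day 4 it passed with limma's trend and robust options (adjusted p = 0.04) and without either day 7 mock array. It also passed at day 4 with normexp (-0.99, adjusted p = 0.024), where 5053 of all 15217 genes were called. In control glomeruli it read 1.17 and 1.08 and in treated glomeruli 0.53 and 0.49, a difference of -0.61 (SE 0.28, adjusted p = 0.29). Both treated glomerular arrays were thus below both controls as well. Leaving out single arrays, 11 of 12 fits did not call Bmp6 at day 7, each except that without day 7 mock replicate 1, with adjusted p from 0.011 to 0.2 and a difference between -2.24 and -1.31. It was also lost with normexp background correction (-1.46, adjusted p = 0.074) and on the day 7 arrays alone (0.34).

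Acvr1 read 2.99 and 3.05 in day 4 mock cultures against 3.56 and 3.60 with tamoxifen. The day 7 values were 2.99 and 2.98 under mock treatment against 3.72 and 3.70 with tamoxifen. The arrays of each culture group lay within a narrow band, and treated and mock groups did not overlap on either day. Acvr1 rose by 0.72 at day 7 (SE 0.11, adjusted p = 0.032 by limma), while 0.55 at day 4 did not pass (adjusted p = 0.1). A second Acvr1 probe gave 0.61 at day 7 and 0.52 at day 4. The day 7 call was lost in 10 of the 12 fits without 1 array, each except those without control glomeruli replicate 1 or 2, with adjusted p from 0.035 to 0.19, while the difference stayed between 0.71 and 0.73. It was lost too with normexp (adjusted p = 0.13), with the mean of the 2 probes (0.67, adjusted p = 0.13) and on the day 7 arrays alone (0.31).

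The largest rise among the ligands was that of Tgfb3, which encodes one of the TGF-beta isoforms and did not pass the test. Its values were 4.48 and 4.04 under mock treatment against 5.55 and 5.62 with tamoxifen at day 4, and 4.62 and 4.02 against 5.74 and 5.57 at day 7. Every treated array was above every mock array on both days. The differences were 1.33 at day 4 (SE 0.25, adjusted p = 0.082) and 1.33 at day 7 (SE 0.25, adjusted p = 0.057). Tgfb3 passed at day 7 with median scaling (adjusted p = 0.031), with limma's trend and robust options (0.039) and without day 7 mock replicate 1. At day 4 it passed with normexp (adjusted p = 0.022), where 5053 of all 15217 genes were called. Over the other ligands, Tgfb2 was at 0.72 and 0.75, Bmp4 at 0.53 and 0.62, Bmp7 at 0.67 and 0.58, Inhba at 0.71 and 0.69 and Inhbb at 0.42 and 0.29 at day 4 and day 7. Tgfb1 was at -0.46 and -0.27 and Bmp2 at -0.47 and -0.43, and all of these had adjusted p of 0.38 or more.

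Among the secreted regulators the largest difference was in Fst, follistatin, which binds and blocks activin. Fst read 0.27 and 0.70 under mock treatment against 1.93 and 2.04 with tamoxifen at day 4, and 1.12 and 0.62 against 2.93 and 2.33 at day 7. The groups did not overlap on either day, and the difference was 1.5 at day 4 (SE 0.33, adjusted p = 0.12) and 1.76 at day 7 (SE 0.33, adjusted p = 0.058). Fst passed at day 7 with normexp (adjusted p = 0.044), with median scaling (0.039) and with limma's trend and robust options (0.042). It also passed there without treated glomeruli replicate 1 or 2. At day 4 it passed with normexp (adjusted p = 0.022), where 5053 of all 15217 genes were called.

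Bmp1, which despite its name is a metalloproteinase that cleaves procollagens and chordin, followed the same order. It read 3.77 and 3.44 under mock treatment against 4.76 and 4.91 with tamoxifen at day 4, and 4.21 and 3.22 against 5.45 and 4.64 at day 7. The differences of 1.23 (adjusted p = 0.25) and 1.33 (adjusted p = 0.17) did not pass, and 3 Bmp1 probes gave 1.17 to 1.23 at day 4 and 1.18 to 1.33 at day 7. Grem1, gremlin, a BMP antagonist, was well above background on 1 of 2 mock arrays on each day and on 0 treated arrays. It read -6.09 and -4.06 under mock treatment against -6.17 and -6.31 with tamoxifen at day 4, and -5.70 and -4.60 against -6.40 and -6.84 at day 7. With treated arrays set no lower than the lowest measurable signal, the mock mean was 1.38-fold higher at day 4 and 1.62-fold at day 7. These are not lower bounds, since 1 mock array on each day was dim too. Neither difference was called by limma (adjusted p = 0.58 and 0.41). With normexp Grem1 pointed the other way at day 4 (1.05, called, as were 5053 of all 15217 genes), so its direction there is not settled. Ltbp4, a latent TGF-beta binding protein, was at -0.45 and -0.70 without passing, and the remaining members of the role, Ltbp1, Ltbp2, Ltbp3, Nog and Chrd, lay between -0.16 and 0.49 on both days.

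Among the receptors, Tgfbr3, betaglycan, a co-receptor that presents TGF-beta2, read 0.83 and 0.77 under mock treatment against 1.27 and 1.38 with tamoxifen at day 4. At day 7 it read 0.84 and 0.53 against 1.22 and 1.47. The groups did not overlap on either day, and the differences of 0.52 (adjusted p = 0.23) and 0.66 (adjusted p = 0.097) did not pass. Tgfbr2, the type II TGF-beta receptor, was at 0.34 and 0.37, while Tgfbr1, its type I partner, was at 0.00 and -0.07. The BMP receptors Bmpr1a, Bmpr1b and Bmpr2, the activin receptor Acvr2a and the co-receptor Eng lay between -0.23 and 0.67, with adjusted p of 0.7 or more.

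The Smads differed little with tamoxifen in cultures. All 8 members of that role lay between -0.17 and 0.34 over both days, with 0 called. The largest difference was that of Smad7, an inhibitory Smad, which read 1.39 and 0.95 under mock treatment against 1.73 and 1.29 with tamoxifen at day 4, and 1.24 and 1.07 against 1.41 and 1.52 at day 7. The day 4 groups overlapped, and the differences of 0.34 and 0.31 did not pass (adjusted p = 0.87 on both days).

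Of the target genes, Id1, an inhibitor of basic helix-loop-helix factors that BMPs induce, had the largest difference at day 4. It read 3.37 and 2.93 under mock treatment against 3.97 and 3.59 with tamoxifen at day 4, and 3.57 and 3.06 against 3.88 and 3.73 at day 7, with differences of 0.63 (adjusted p = 0.66) and 0.49 (adjusted p = 0.71). Its relatives Id2 (-0.18 and -0.28) and Id3 (-0.26 and -0.38) were on the other side of 0 without passing. Tgfbi, a matrix protein named for its induction by TGF-beta, had the largest difference at day 7. It read -2.48 and -4.17 under mock treatment against -2.99 and -4.69 with tamoxifen at day 4, and -2.28 and -4.74 against -3.72 and -6.35 at day 7, where the last array was not well above background. Replicate 1 was higher than replicate 2 in each of these 4 groups, the groups overlapped, and the difference of -1.52 had an SE of 1.11 (adjusted p = 0.67). Without 1 array it ran from -2.84 to -0.20, with the nearest to 0 without treated day 7 replicate 2 and the furthest without treated day 7 replicate 1, and normexp gave -0.55. With normexp the day 4 difference of Tgfbi turned from -0.52 to 0.59.

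**Figure D1:**
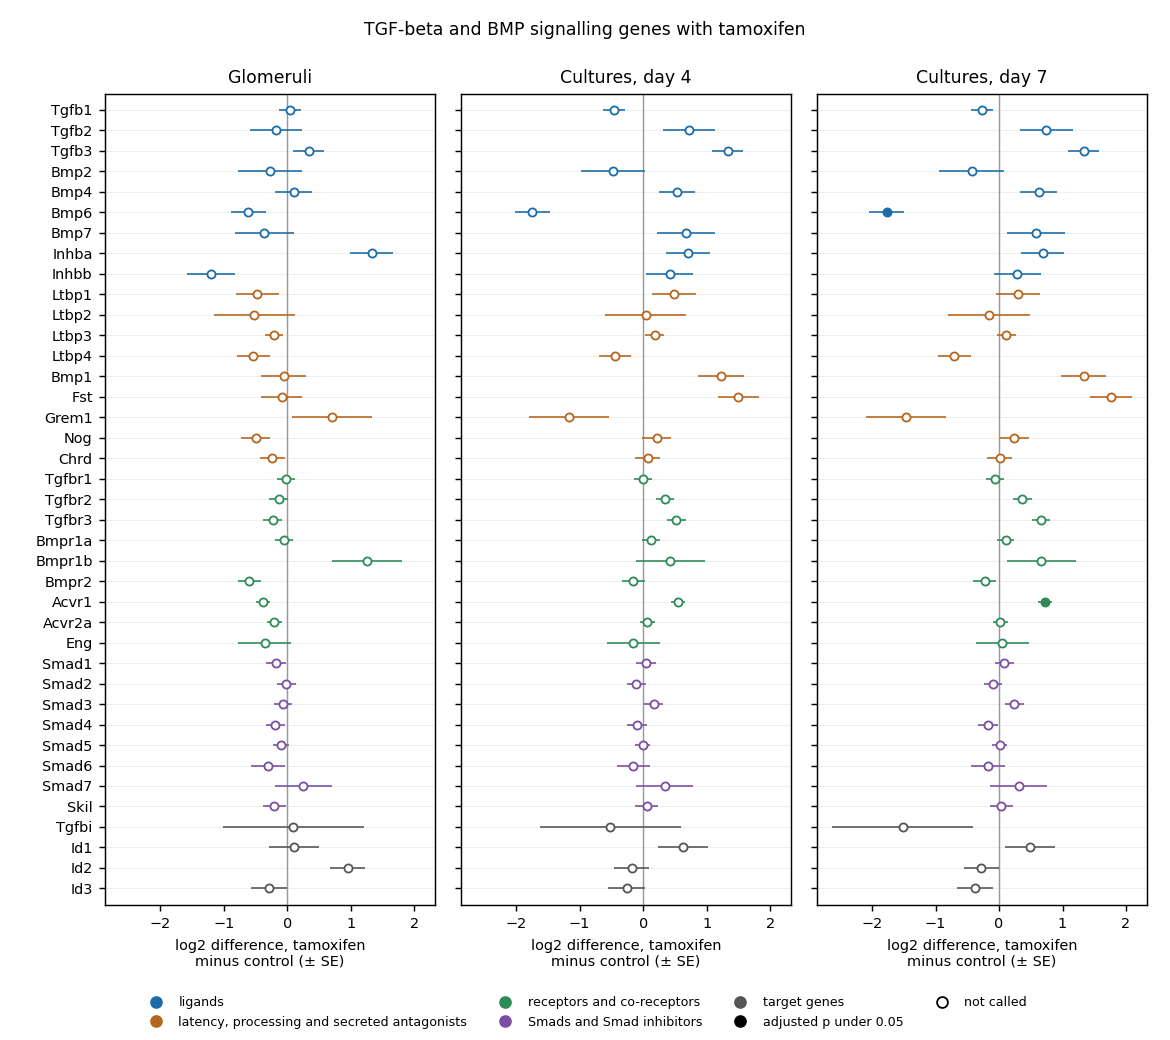
Log2 difference between tamoxifen and control (x axis, ± SE, n = 2 against 2) for the 39 measured members (y axis) in glomeruli, day 4 cultures and day 7 cultures, coloured by role, with filled points for an adjusted p under 0.05. The filled points are Bmp6 at -1.77 and Acvr1 at 0.72, both at day 7.

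Both culture days gave like values for the members. The labels do not say that the 2 days came from separate preparations, so their likeness may not be independent. Replicate 1 minus replicate 2 differences over all genes correlated at 0.395 to 0.551 between culture groups. The day 7 response minus the day 4 response was between -1.0 (Tgfbi) and 0.26 (Fst), 0 of 39 members were called by limma against 0% of all genes, and 0 members and 136 genes had an unadjusted p under 0.05. At day 4, 22 of 39 members had mock and treated arrays that did not overlap, against 50.5% of all genes, and at day 7 it was 21 of 39, against 41.3%. In 11 members the treated arrays were above the mock arrays on both days, against 16.0% of all genes, and these were Tgfb2, Tgfb3, Bmp4, Inhba, Bmp1, Fst, Acvr1, Tgfbr2, Tgfbr3, Smad3 and Id1. In 6 members they were below on both days, against 11.5% of all genes, and these were Tgfb1, Bmp6, Ltbp4, Grem1, Smad2 and Id3. With normexp the day 4 difference of Smad3 (-0.12) and of Grem1 had the opposite sign. Grem1 met the filter on dim probes only through 1 mock array of each day, on the side where it was higher. Its place in these counts rests partly on dim readings and is not support for a fall. The median difference over the 39 members was 0.07 at day 4 and 0.09 at day 7, beside 0.02 and 0.00 over all genes, and the median absolute difference was 0.34 and 0.29, beside 0.17 and 0.17.

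**Figure D2:**
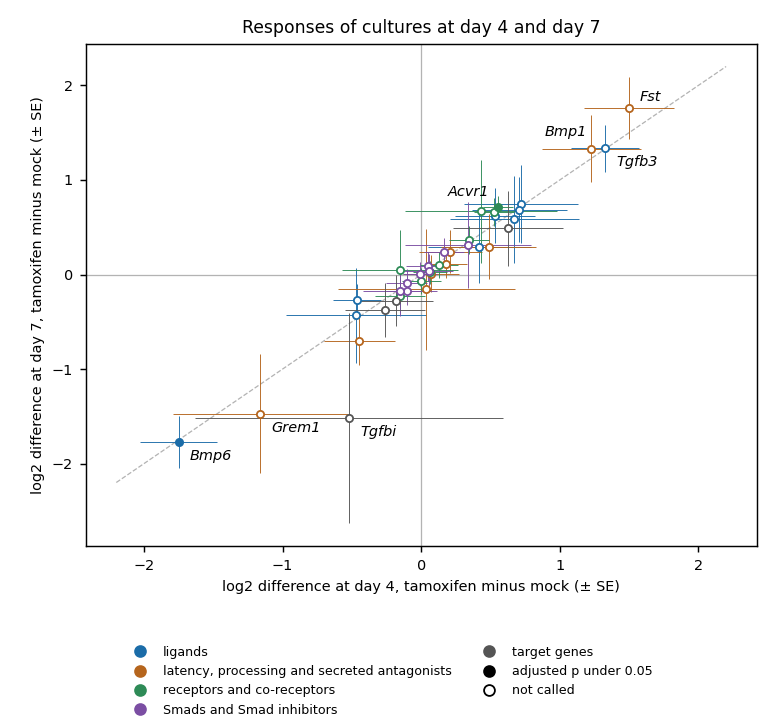
Log2 difference with tamoxifen at day 4 (x axis) and at day 7 (y axis), each ± SE, for the 39 members, with the line of equal response dashed and filled points called at day 7. Fst and Tgfb3 lie at the upper right and Bmp6 at the lower left, with -1.75 and -1.77.

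Markers of cell types were read beside these values in the same cultures. Of 12 podocyte markers 9 were lower at day 7 and 1 of them, Clic5, fell (by 1.57, adjusted p = 0.033). The pericyte gene Rgs5 fell by 2.82 (adjusted p = 0.014 by limma) and the fibroblast gene Mfap5 rose by 1.31 (0.023). Cldn1 of the parietal epithelium fell by 1.95 (0.031) while 8 of the 10 parietal markers were higher in mean (median 0.39). The other lower one, Cldn2, had the largest difference of that list (-4.58) without passing. It read -2.15 and -1.63 under mock treatment against -7.85 and -5.09 with tamoxifen at day 7. The first treated value lay below the lowest signal well above background on its array (-5.92). Of 12 mesangial and mural markers 7 were lower at day 7 (median -0.22), Rgs5 alone being called. Their summed level, relative to the 75th percentile, was 50.7 to 76.6 on the mock arrays of both days and 112 to 134 on the treated ones, but without Cnn1, calponin of smooth muscle, it was 20.9 to 24.3 and 17.3 to 22.0. Cnn1 itself was at 1.32 and 1.35 on day 4 and day 7 without passing (adjusted p = 0.43 and 0.38). The summed level of 10 parietal markers was 13.4 to 19.7 in mock and 16.6 to 23.6 in treated day 7 cultures, and that of 6 fibroblast markers was 9.78 to 45.2 and 33.5 to 49.1. Of 9 immune markers 8 were lower in mean at day 7 (median -0.28, 0 called by limma). Their summed level was 10.3 to 15.8 in mock and 7.93 to 11.4 in treated day 7 cultures. The part of these lists in the member values was not tested.

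In glomeruli, tamoxifen changed 0 of 39 members past the threshold, against 2.64% of all genes. Most members were somewhat lower: 29 of 39 had a lower mean with tamoxifen, beside 8669 of 15217 genes, and the median difference was -0.18 beside -0.05 over all genes. With each array scaled to its median 26 of 39 were lower, and Tgfbr1, Bmpr1a and Smad2 then had the opposite sign, as had Tgfbr1, Fst and Chrd with normexp and Fst with quantile normalization. Treated and control arrays did not overlap for 20 of 39 members, against 47.8% of all genes. Of these 5 were higher, against 20.0% of all genes, and 15 lower, against 27.8%. The 5 include Grem1, whose probe was not well above background on any glomerular array. By limma 5 members had an unadjusted p under 0.05, namely Inhba, Id2, Inhbb, Bmpr2 and Acvr1, as had 2781 of all 15217 genes.

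Inhba, whose product is the activin A subunit, had the largest rise of the ligands. It read -4.43 and -5.49 in the controls against -3.83 and -3.42 after tamoxifen, with no overlap, and the difference was 1.33 (SE 0.34, adjusted p = 0.086 by limma). It passed without control replicate 1, and over the 12 fits without 1 array the difference ran from 0.80 to 1.86. Over 10 other settings the difference ran from 0.51 to 1.38, and Inhba passed in 0 of them (adjusted p from 0.063 to 0.47 by limma). Control replicate 2 read close to the lowest signal well above background on its array (-5.81). Inhbb, the subunit of activin B, was at -1.04 and -1.16 in the controls against -2.82 and -1.79 after tamoxifen, a difference of -1.20 (SE 0.37, adjusted p = 0.14). The 2 activin subunits thus lay on opposite sides of 0 in glomeruli, and neither passed.

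Id2 read 1.48 and 0.55 in the controls against 2.11 and 1.83 after tamoxifen, a difference of 0.95 (SE 0.27, adjusted p = 0.11). The control arrays were further apart than the treated ones, and without control replicate 1 Id2 passed (1.41, adjusted p = 0.031), while without control replicate 2 the difference was 0.48. Bmpr1b, a type I BMP receptor, read -4.81 and -3.64 in the controls against -3.14 and -2.80 after tamoxifen, a difference of 1.25 (SE 0.55, adjusted p = 0.28) that ran from 0.67 to 1.84 without 1 control array. Bmpr2, the type II BMP receptor, was at -0.60 (adjusted p = 0.13) and Acvr1 at -0.38 (0.11).

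Among the secreted regulators Grem1 had the largest difference in glomeruli, 0.70 (adjusted p = 0.62), but its probe was well above background on 0 of the 4 arrays, which read -7.99 and -7.85 in the controls against -7.60 and -6.84 after tamoxifen. The other 8 genes of that role had a lower mean with tamoxifen, from -0.53 for Ltbp4 to -0.06 for Bmp1. Of the Smads 7 of 8 were lower in mean, and the largest difference was that of Smad6, an inhibitory Smad of the BMP branch. Smad6 read 2.76 and 2.30 in the controls against 1.87 and 2.59 after tamoxifen, which overlapped (-0.30, SE 0.27, adjusted p = 0.61), and without treated replicate 1 the difference was 0.06.

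The bulk arrays cannot tell fewer cells of a type from less RNA per cell. In treated glomeruli all 12 podocyte markers were lower in mean (median -0.52), with Synpo called (-1.32, adjusted p = 0.037), and 10 of 12 endothelial markers were lower (median -0.32). The summed level of 12 tubule markers was 64.7 to 65.3 in control and 95.5 to 155.8 in treated glomeruli, and that of 6 red blood cell markers was 39.2 to 87.6 and 0.91 to 7.45. Of 12 mesangial and mural markers 11 were higher in mean (median 0.36), with 0 called by limma and the largest difference in Cnn1 (2.60, adjusted p = 0.053), and 9 of 10 parietal markers were higher too (median 0.63, 0 called). For 9 immune markers the sum was 9.57 to 10.2 and 4.91 to 6.83. Whether these bear on the member values was not tested.

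The responses of glomeruli and cultures were compared in the same limma fit. For 1 of 39 members, Acvr1, the glomerular response differed from the mean culture response, against 1.09% of all genes. Acvr1 was at -0.38 in glomeruli, where control arrays read 2.35 and 2.11 and treated arrays 1.79 and 1.91, and at 0.55 and 0.72 in cultures, so that the responses differed by -1.02 (SE 0.13, adjusted p = 0.028). The call was lost in 9 of the 12 fits without 1 array, each except those without control glomeruli replicate 2, treated glomeruli replicate 2 or day 7 mock replicate 1, with adjusted p from 0.019 to 0.081 and a difference of -1.14 to -0.90. It was lost with normexp (adjusted p = 0.17) and with the mean of 2 probes (0.055), and glomeruli and cultures lay on different slides. Grem1 was not well above background on any glomerular or treated culture array and is given no size here. The largest differences among the others were those of Fst (-1.72), Inhbb (-1.56), Bmp1 (-1.34), Id2 (1.18) and Bmp6 (1.15), with adjusted p of 0.087 to 0.18.

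**Figure D3:**
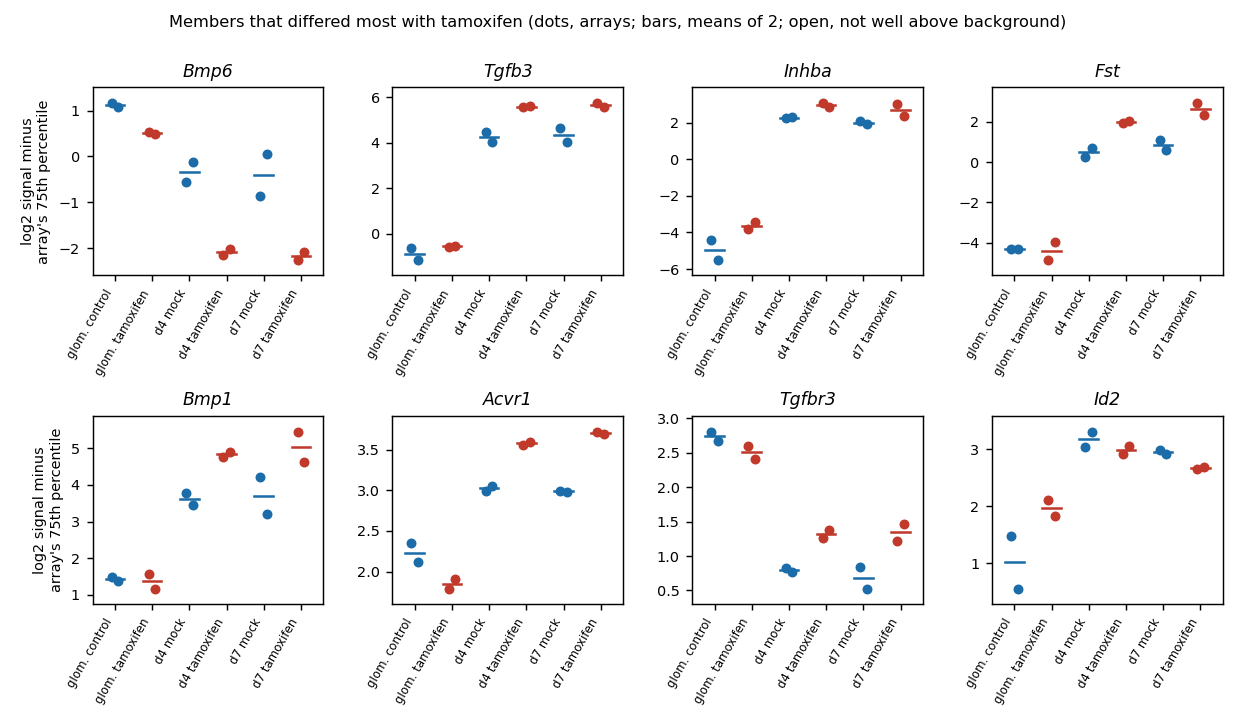
Log2 signal minus the array's 75th percentile (y axis) on each of the 12 arrays (dots, with the mean of 2 as a bar) by group (x axis) for 8 members. Bmp6 is lowest on the treated culture arrays, between -2.25 and -2.01, and Acvr1 is highest there, between 3.56 and 3.72.

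The largest differences of the set were between mock cultures and control glomeruli. Of 39 members 31 were called, against 63.7% of all genes: 20 were higher in culture, against 37.8%, and 11 lower, against 25.9%. Higher in culture were Ltbp2, Inhba, Tgfb3, Fst and Bmp4, and lower were Tgfbi, Ltbp4, Ltbp1 and Eng. The median difference was 0.39 beside 0.18 over all genes, and the median absolute difference was 1.56 beside 0.67. Median scaling moved the median of all genes to 0.41 and gave 20 higher and 10 lower members, while the genes called split into 7191 higher and 3026 lower in place of 5755 and 3942. Calls lost under at least 1 other setting or left-out array were those of Acvr2a, Chrd, Tgfbr1, Bmpr1a, Smad7, Bmp7 and Grem1, and normexp kept 27 of the 31. Bmp7 was lost without control glomeruli replicate 2, and Smad7 without that array, day 4 mock replicate 1 or either day 7 mock array. Bmpr1a was lost without control glomeruli replicate 1 or day 4 mock replicate 1, Acvr2a without either control array, day 4 mock replicate 1 or day 7 mock replicate 1, and Chrd in 10 of the 12 fits without 1 array.

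Among the ligands 4 of 9 rose and 4 fell. Inhba read -4.43 and -5.49 in control glomeruli and 2.26, 2.29, 2.08 and 1.94 in the mock cultures of day 4 and day 7, a rise of 7.10 (SE 0.30, adjusted p = 7.5e-07). Tgfb3 went from -0.64 and -1.15 to between 4.02 and 4.62, a rise of 5.18 (SE 0.21, adjusted p = 6.9e-07). Bmp4 went from 2.08 and 1.19 to 5.10, 5.19, 4.79 and 5.12, a rise of 3.41 (SE 0.25, adjusted p = 1.4e-05). In all 3 the lowest culture array was above both glomerular arrays, and with normexp the rise of Inhba was 5.17. Tgfb2 went from -0.12 and -0.90 to 2.22, 2.01, 2.07 and 1.89, a rise of 2.56 (SE 0.36, adjusted p = 0.00042). In the opposite direction Tgfb1, Bmp6, Bmp7 and Inhbb fell by 1.69, 1.5, 1.57 and 1.56 (adjusted p from 3.9e-05 to 0.0094). The 3 TGF-beta isoforms therefore did not move one way, with Tgfb1 lower and Tgfb2 and Tgfb3 higher in culture. Bmp2 did not differ beyond its spread (0.01, SE 0.44).

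The 4 latent TGF-beta binding proteins split evenly. Ltbp2, a matrix protein of the family that does not bind latent TGF-beta, read -3.79 and -5.81 in control glomeruli, the second not well above background, and 3.60, 3.86, 3.72 and 3.63 in mock cultures. This was a rise of 8.50 (SE 0.55, adjusted p = 7.3e-06), the largest of the set as measured. It was 9.51 without control replicate 1, 7.49 without control replicate 2 and 6.66 with normexp. Ltbp3 went from 2.49 and 2.58 to 4.95, 4.90, 4.93 and 4.55 (2.30, SE 0.13, adjusted p = 3.3e-06), and a second probe gave 2.10. Ltbp4 instead went from 3.89 and 4.23 to 0.03, 0.58, -0.14 and 0.41, so that it fell by 3.84 (SE 0.22, adjusted p = 3.9e-06). Ltbp1 went from 0.14 and 0.40 to -2.61, -2.57, -2.25 and -3.19 and fell by 2.93 (SE 0.30, adjusted p = 7.8e-05). For each of the 4 genes the mock culture arrays and the control glomerular arrays did not overlap.

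Of the antagonists and the processing enzyme Bmp1, Fst and Bmp1 were higher in culture, the calls of Grem1 and Chrd were lost under some settings, and Nog did not pass. Fst read -4.33 and -4.31 in control glomeruli and 0.27, 0.70, 1.12 and 0.62 in mock cultures, a rise of 5.0 (SE 0.28, adjusted p = 3.5e-06), or 3.60 with normexp. Bmp1 went from 1.47 and 1.38 to 3.77, 3.44, 4.21 and 3.22, a rise of 2.23 (SE 0.31, adjusted p = 0.00042). Its other probes gave 1.25 and 2.92. Grem1 was not well above background in control glomeruli (-7.99 and -7.85) and was so on 2 of 4 mock cultures, which read -6.09, -4.06, -5.70 and -4.60. With the glomerular arrays set no lower than the lowest measurable signal, the mean of Grem1 was 1.86-fold higher in culture (adjusted p = 0.0024 by limma). This is not a lower bound, since the other mock arrays were dim too. Grem1 met the filter on dim probes only through those 2 mock arrays, on the side where it was higher. With normexp the call was lost (0.55, adjusted p = 0.18). Chrd rose by 0.47 (adjusted p = 0.042 by limma), and Nog was at -0.04 without passing. The Chrd call was lost with normexp, without the filter on dim probes, with limma's trend and robust options and in most fits without 1 array.

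Of the receptors 3 rose and 4 fell. Eng, endoglin, a TGF-beta co-receptor of endothelial cells, read 4.97 and 4.58 in control glomeruli and 1.93, 1.50, 2.81 and 1.48 in mock cultures, so that it fell by 2.85 (SE 0.36, adjusted p = 0.00026). Tgfbr3 and Tgfbr2 fell by 2.00 (adjusted p = 6.3e-06) and 1.72 (1.5e-05), and Acvr2a fell by 0.33 (0.023). The type I receptors Acvr1, Tgfbr1 and Bmpr1a rose by 0.77, 0.63 and 0.39 (adjusted p from 0.00021 to 0.022). Bmpr1b (-0.06) and Bmpr2 (0.07) did not pass. All 12 endothelial markers were lower in culture (median -5.40, also with 2 of them at their bound), with a summed level of 300.4 to 354.1 in control glomeruli and 8.18 to 13.1 in mock cultures, and Tek and Tie1 did not read well above background on any culture array. All 12 podocyte markers were lower too (median -3.15), with sums of 498.7 to 664.3 and 80.6 to 88.0, and 0 of them were dim on every array of a culture group. The part of either in the receptor values was not tested.

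Among the Smads 5 of 8 rose and 0 fell. Smad3, the TGF-beta Smad, read 1.73 and 1.62 in control glomeruli and 3.77, 3.77, 3.73 and 3.93 in mock cultures, a rise of 2.13 (SE 0.12, adjusted p = 4.3e-06), and a second probe gave 2.78. Smad2, which acts beside it, was at 0.04 and did not pass (adjusted p = 0.78). Smad1, Smad4, Smad7 and Skil, a Smad co-repressor, rose by 0.85, 0.68, 1.16 and 0.96 (adjusted p from 0.00088 to 0.032), while Smad5 and Smad6 did not pass (0.03 and 0.23).

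The target genes went both ways. Id2 read 1.48 and 0.55 in control glomeruli and 3.04, 3.30, 2.99 and 2.91 in mock cultures, a rise of 2.04 (SE 0.23, adjusted p = 0.00015). Id3 rose by 1.15 (adjusted p = 0.0041), and Id1 did not pass (0.22, adjusted p = 0.6). Tgfbi went from 1.15 and 1.92 to -2.48, -4.17, -2.28 and -4.74 and fell by 4.95 (SE 0.96, adjusted p = 0.0024). Its culture arrays spread over 2 units, yet all lay below the glomerular ones. The fall was -5.57 without day 7 mock replicate 1, -4.34 without day 7 mock replicate 2 and -4.01 with normexp.

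**Figure D4:**
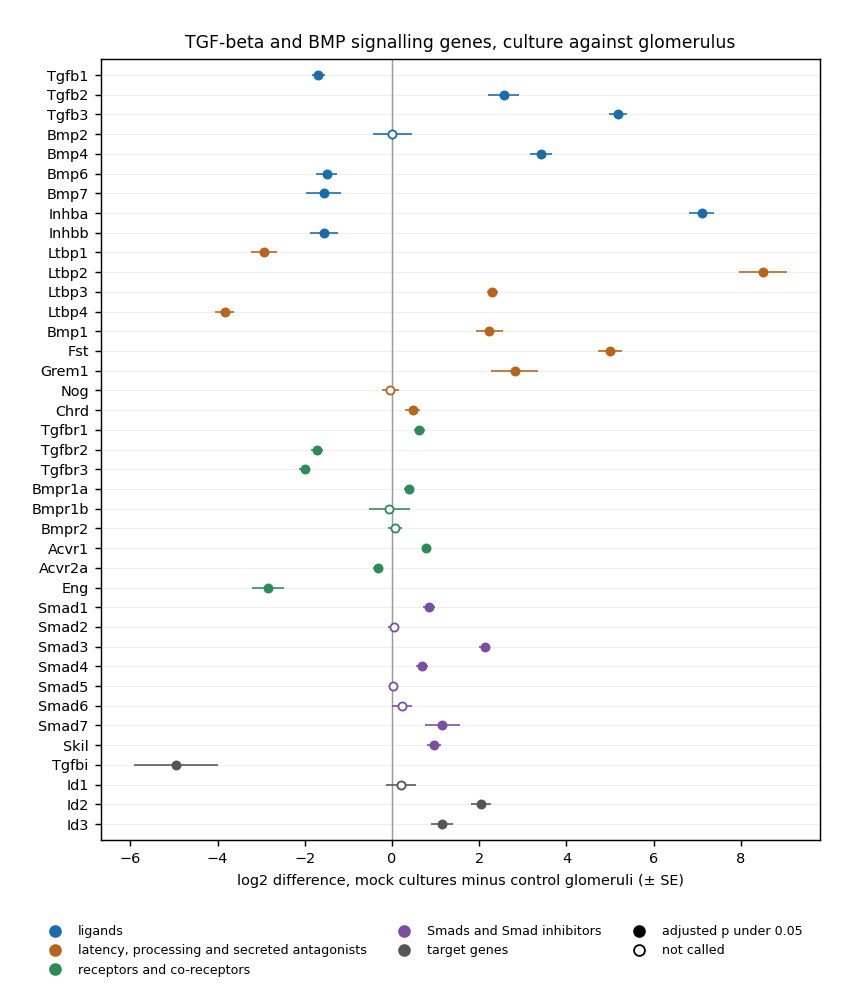
Log2 difference between 4 mock culture arrays and 2 control glomerular arrays (x axis, ± SE) for the 39 members (y axis), coloured by role, with filled points for an adjusted p under 0.05. Ltbp2 at 8.50 and Inhba at 7.10 lie furthest to the right and Tgfbi at -4.95 furthest to the left.

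**Figure D5:**
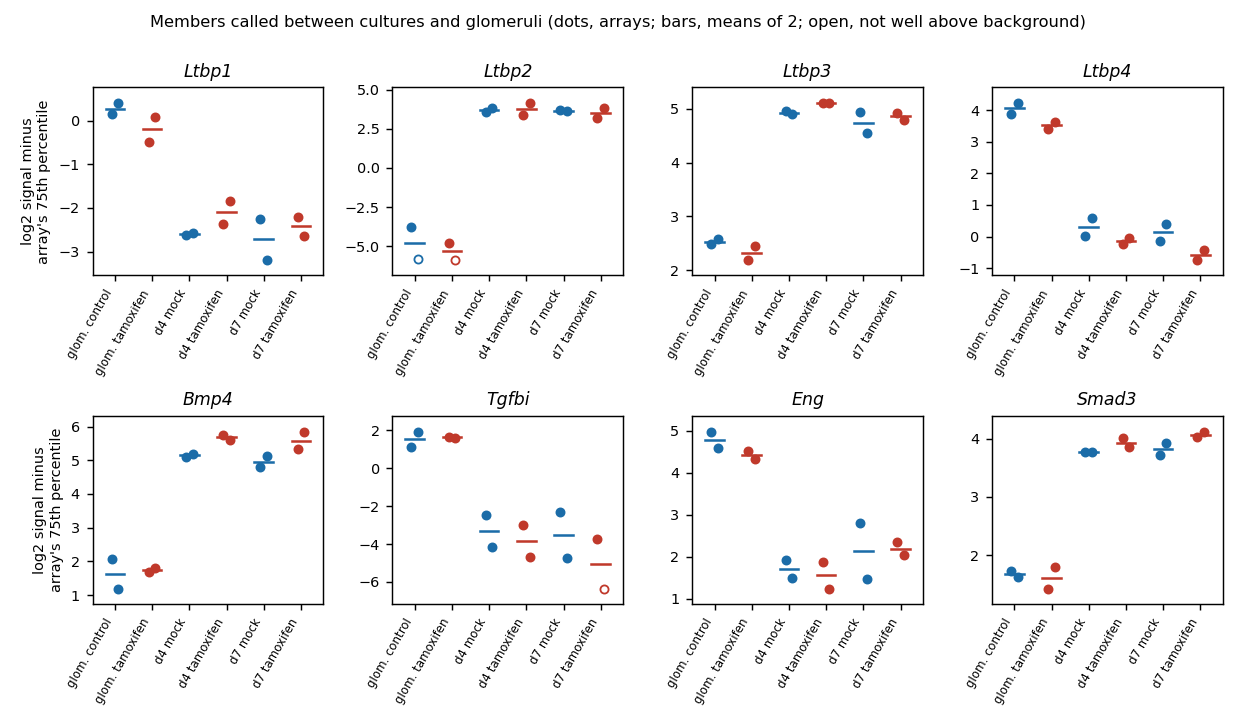
Log2 signal minus the array's 75th percentile (y axis) on each array (dots, with the mean of 2 as a bar) by group (x axis) for 8 members called between mock cultures and control glomeruli, with open dots not well above background. Ltbp2, Ltbp3, Bmp4 and Smad3 are higher on all culture arrays than on the glomerular ones, and Ltbp1, Ltbp4, Tgfbi and Eng are lower.

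Culture time changed the members little. Mock day 7 minus mock day 4 called 0 of 39 members by limma, against 0.0329% of all genes, and 2 members, Nog and Chrd, had an unadjusted p under 0.05, as had 988 of all 15217 genes. Nog, the BMP antagonist noggin, read -2.73 and -2.72 at day 4 and -1.51 and -2.13 at day 7, a difference of 0.91 (SE 0.23, adjusted p = 0.26). Chrd was at 0.58 (adjusted p = 0.51), and the other 37 members were between -0.26 and 0.43.

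Genes of the same pathways outside the 40 were read in the same fit. In glomeruli Tdgf1, a co-receptor of Nodal, fell by 0.83 (adjusted p = 0.03), from -0.74 and -1.08 to -1.68 and -1.80. Bmper, a secreted BMP-binding protein, fell by 0.84, from -1.30 and -1.12 to -2.31 and -1.79, with an adjusted p just under the threshold that rounds to 0.05. Acta2, smooth muscle actin and a TGF-beta target, rose by 1.1 (adjusted p = 0.016), from 1.59 and 1.54 to 2.54 and 2.80, in the glomeruli where 11 of 12 mesangial and mural markers were higher in mean. The part of those cells in it was not tested. These were 0 of 16 ligands, 1 of 24 activators and antagonists, 1 of 7 receptors, 0 of 20 Smad regulators, 1 of 15 TGF-beta targets and 0 of 7 BMP targets measured. Over all genes 2.64% were called in glomeruli. In cultures 0 genes of any of these lists were called with tamoxifen by limma on either day. Over all genes it was 0.210% at day 4 and 0.979% at day 7. Pmepa1, a TGF-beta-induced inhibitor, was at 1.04 and 1.14 (adjusted p = 0.34 and 0.24). It was chosen after its values were seen and had the largest rise of the 20 Smad regulators, whose medians were 0.11 and 0.04. In glomeruli Pmepa1 read 3.17 and 2.87 in the controls against 2.78 and 1.90 after tamoxifen. The 24 activators and antagonists ran from -1.78 to 2.94 at day 4 and from -1.99 to 2.39 at day 7.

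Between mock cultures and control glomeruli 37.8% of all genes were called higher in culture and 25.9% lower. Of 15 TGF-beta targets 13 rose and 1, Klf10, fell (by 1.23), with a median of 4.47, also with Lox at its bound. The collagen cross-linking enzyme Lox, not well above background in control glomeruli, was at least 642.8-fold higher. Other large rises were those of the collagen chain Col1a1 (7.47), the protease inhibitor Timp1 (7.16) and fibronectin, Fn1 (6.84). Of 7 BMP targets 4 rose and 3 fell, with Dlx2 at least 6.70-fold higher, Gata3 at -3.55, Atoh8 at 3.35 and Msx2 at 3.33. Among 16 other ligands 7 rose and 6 fell, with Gdf10 at least 239.2-fold lower, Gdf6 at least 18.2-fold higher and Gdf15 at 5.27. Of 24 activators and antagonists 12 rose and 8 fell, among them Sostdc1, at least 42.4-fold lower, and Bmper at 6.11. Gdf10 and Sostdc1 met the filter on dim probes through glomerular arrays, and Gdf6, Dlx2 and Lox through culture arrays. In each case this was the side where the gene was higher. Of 7 other receptors 1 rose and 5 fell, among them Acvrl1, an endothelial type I receptor, at -4.78. Of 20 Smad regulators 8 rose and 4 fell, with Smad9 at 3.31 and Tgif1 at 2.75. The TGF-beta targets Col1a1 and Col3a1 stand in the fibroblast list as well, as does Dcn of the activators and antagonists. Of the 6 fibroblast markers 3 rose, among them Col1a1 and Col3a1, and 1, Dcn, fell, so the lists share these genes. The summed level of the fibroblast markers was 1.36 to 3.51 in control glomeruli and 9.78 to 45.2 in mock cultures. Their part in these values was not tested.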

How the data were processed

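Cy3-labelled RNA of 12 samples was read on one Agilent array each, per the labels' protocols. Spot intensity in the deposited files is linear and background-subtracted (Feature Extraction 11.5.1.1, in the file headers). The deposited value table of the authors is in log2 units of unstated scale. Set against each array they matched the log2 signal minus its 75th percentile (r = 1) apart from a constant of 0.094 to 0.12, with column medians of -4.14 to -3.81 and no gene centring, so the table was used as an alternative. There were 0 columns of no sample.

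Each array's 75th percentile was subtracted from its log2 processed signal, without control spots and outlier spots. Probes were named by RefSeq accession (26581 of 28115 matched, GRCm38.p6). Probes well above background on at least 2 arrays were kept if they also had a value on all 12 arrays after outlier spots were removed. The brightest kept probe stood for a gene. The test was limma 3.58.1 (R 4.3.3) with lmFit and eBayes (6 group means, no block, 6 residual and 1.88 prior degrees of freedom) with Benjamini-Hochberg adjustment over 15217 genes. Groups came from the sample labels. The code was tested on simulated data. The number of arrays limits the precision.

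For a gene not well above background on every array of a group, a bound sets the bright group's mean against, on each dim array, the higher of its own value and the lowest signal well above background. For Grem1 some arrays of the brighter group were dim too, so its value is not a lower bound. The members and lists were chosen with earlier results of these data known. Values on every array are given for members called with tamoxifen, for the largest difference of each role in each tamoxifen comparison, and for members called between mock cultures and control glomeruli by at least 2 log2 units or as a bound. Of other pathway lists up to 4 called genes are named. Tgfb3, Bmp1, Fst, Tgfbr3, Inhbb, Bmpr2 and Nog were given beyond this rule after their values were seen. Alternatives were other background corrections, scalings, filters, probe rules and limma options, a replicate block, the compared arrays alone, and each array left out.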

Additional observations from a re-analysis of the deposited data

Results flagged for a closer look

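For Acvr1 the tamoxifen responses of glomeruli and cultures differed. The interaction in the limma fit gave a glomerular response minus mean culture response of -1.02 (SE 0.13, adjusted p = 0.028), although the glomerular difference of -0.38 and the day 4 difference of 0.55 did not pass alone (adjusted p = 0.11 and 0.1). The call was lost in 9 of the 12 fits without 1 array, with normexp (adjusted p = 0.17) and with the mean of 2 probes (0.055), and glomeruli and cultures lay on different slides.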

How the results depend on the processing

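Of the named log2 differences, 344 of their values under settings other than a left-out array kept direction and side of the threshold, 15 came to pass it and 8 no longer passed it. With 1 array left out these were 406, 7 and 30, and 1 changed sign: Smad6 in glomeruli was at 0.0589 without treated replicate 1 and ran from there to -0.6627 over the 12 fits. The causes were not tested. The 15 members called between mock cultures and control glomeruli by at least 2 log2 units or as a bound passed in all 12 fits without 1 array and under each other setting that kept them, except Grem1 with normexp.

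With normexp, members called were 9 at day 4, 1 at day 7 and 0 for the difference of responses, and genes called were 5 in glomeruli, 5053 at day 4, where the median of all genes moved to 0.19, 57 at day 7, 4 for the difference of responses and 0 between culture times. Median scaling called 4 members at day 7, and in glomeruli 281 genes higher and 80 lower in place of 268 and 134. It called 26 higher and 17 lower at day 4 in place of 14 and 18, and 113 and 71 at day 7 in place of 69 and 80. Quantile normalization called 52 genes at day 4 and 3 between culture times. Without a filter on dim probes genes called were 258 in glomeruli, 107 for the difference of responses and 10 between culture times. With probes well above background on 6 arrays they were 217, 104 and 2. The mean of a gene's probes called 1 member at day 7 and 0 for the difference of responses. The trend and robust options called 1 member and 82 genes at day 4, 4 members at day 7 and 0 genes between culture times. On the compared arrays alone 0 members were called at day 7, and genes called were 0 in glomeruli, 0 at day 4, 1 at day 7 and 0 between culture times.

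Without 1 array, members called were 0 to 2 in glomeruli, 0 to 1 at day 4, 0 to 2 at day 7, 0 to 2 for the difference of responses and 27 to 31 between mock cultures and control glomeruli. Genes called were 89 to 495, 7 to 79, 9 to 238, 6 to 368 and 8245 to 9588, with 0 to 1 for the day 7 minus day 4 response and 0 to 7 between culture times. A group left with 1 array was assumed to vary like the others.

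With the replicate number as a block within glomeruli and within cultures, members called were 2 in glomeruli (Bmpr1b and Id2), 2 at day 4 (Tgfb3 and Bmp6), 5 at day 7 (Tgfb3, Acvr1, Fst, Ltbp4 and Bmp6) and 2 for the difference of responses (Id2 and Acvr1). Genes called were 945, 236, 642 and 701, and 0 between culture times. The replicate 1 minus replicate 2 differences correlated at 0.395 to 0.551 between culture groups and at 0.21 between the glomerular groups. Between glomerular and culture groups the correlations were -0.038 to 0.085. What culture samples of a number share is not known, since the labels tie no number to an animal, culture or day. A slide block could not be fitted, since each slide holds whole groups and the tamoxifen comparisons already lie within a slide. Signal over background limits Grem1, Tgfbi in treated day 7 cultures and Ltbp2 in glomeruli.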
